A study of Zea mays with 6 samples.

Results

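Photosystem I, ferredoxin and ferredoxin-NADP reductase form the last stretch of photosynthetic electron transport. Described here are 5 genes named for these components, measured by 6 of 17621 probe sets on the array besides controls. Of 1108 genes named on the array, 820 were bright enough to be tested, these 5 among them. They were chosen by name: psad1, psah1 and psan1, which encode nuclear subunits of photosystem I, fdx2, which encodes a ferredoxin, and fnr1, which encodes a ferredoxin-NADP reductase and has 2 of the 6 probe sets. Whether fnr1 encodes a leaf or a root form of the enzyme is not known here. All 6 probe sets passed the filter on dim probe sets. Of these genes psad1 alone lies on the short arm of chromosome 5, so its extra copy in DpDf plants can be set against partner subunits with an unaltered copy number.

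The aneuploid plants were DpDf (duplicate-deficient) maize seedlings, in which a chromosome derived from the translocation T5-6b gives 3 copies of about 90% of the chromosome 5 short arm and 1 copy of a small terminal piece of the chromosome 6 short arm. Their wild-type siblings carried 2 copies of both. Both groups came from selfed DpDf plants of stocks backcrossed into the B73 inbred for over 10 generations, were sampled on day 14 after planting, and were sorted by a marker near the chromosome 5 breakpoint. Each group had 3 pools, each pool held 8 seedlings, with 1 Affymetrix array per pool, so that every value is an average over several plants. The tissue was the shoot tip around the apical meristem with leaf primordia attached, and all plants grew in a greenhouse with daily light and dark periods.

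Photosystem I sits in the thylakoid membrane of chloroplasts, takes electrons from plastocyanin, and uses light to pass them to ferredoxin on the stromal side. PsaD, the product of psad1, lies on that stromal face and forms part of the ferredoxin docking site. PsaH borders the docking area of the mobile light-harvesting antenna, and PsaN lies on the lumenal side near plastocyanin. Ferredoxin hands the electrons to ferredoxin-NADP reductase, which makes NADPH. In plastids of tissue that is not green, proteins of these 2 kinds can run in the opposite direction. In maize leaves different ferredoxins serve mesophyll and bundle sheath cells, and the product of fdx2 is known as a ferredoxin of the bundle sheath.

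The arrays were not equally alike. The highest Spearman correlation of wild type replicate 3 with another array was 0.932, against 0.988 for the lowest among the other 5 arrays. It was the lowest of the 6 arrays for 76.1% of the 10661 probe sets tested. With it the log2 values of DpDf exceeded those of wild type by a median of 0.18 over all of them, against 0.02 without it. Dim probe sets were not lowered alike: on wild type replicate 3 the 10th percentile of intensity was 104.2, against 69.58 to 73.71 on the other arrays. Its highest intensity was 29779, against 34041 to 35765, so its values spanned a narrower range. Each difference below is the log2 value in DpDf minus that in wild type, and is therefore given from 6 arrays and from the 5 that leave wild type replicate 3 out. As a sign of RNA quality, the signal at the 3' end relative to the 5' end was taken over 5 control transcripts. It was 1.96, 0.99 and 0.95 on the log2 scale in DpDf and 0.64, 0.70 and 0.70 in wild type, in the order of their replicate numbers. It lay higher in all DpDf pools and highest in DpDf replicate 1, and its part in the results below was not tested.

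The tissue label was set against marker genes. Of 17 shoot meristem markers listed, 4 had a named probe set, and kn1, the homeobox gene that marks the meristem, lay between 9.77 and 10.42 in DpDf and between 9.96 and 10.24 in wild type (log2(intensity + 1)), above the array's 40th percentile on every array. The meristem regulator abph1 lay under that percentile on all 6 arrays. All 7 measured genes matched to the list of green leaf cell markers, among them rbcs1 for the small subunit of Rubisco, were above it on every array. Their summed level was 14.88 to 14.96 on the log2 scale in DpDf and 14.52 to 14.88 in wild type, while that of the 4 meristem markers was 10.84 to 11.38 in DpDf and 10.83 to 11.16 in wild type. Green-cell marker sums of the 2 groups nearly touched, at 14.879 for the lowest DpDf pool and 14.877 for the highest wild-type pool, but did not overlap. Taken singly, 23.2% of all probe sets tested also had every DpDf array above every wild-type array. The median difference of those 7 genes was 0.22 with wild type replicate 3 and 0.03 without it, beside 0.58 and 0.32 for psad1. Without that array the 7 genes ran from -0.28 (pep1) to 0.29 (pdk1), and none was called. Their part in the psad1 result was not tested. Of the 7, pdlk1 entered through a matching name and is not known here as a green-cell marker. The 0.22 is the value of pdlk1 itself. In tissue measured whole, fewer cells of a type and less RNA per cell cannot be told apart.

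Transcripts of psad1 were more abundant in every DpDf pool than in any wild-type pool, and those of its partners psah1 and psan1 were not. Without wild type replicate 3 the difference of psad1 was 1.25-fold, below the 1.5-fold ratio of the gene copies, and it missed the threshold of the test. The only probe set of the 6 that passed the test in either array set was one for fnr1, which fell in DpDf to 0.54 of the wild-type level without wild type replicate 3. That call was lost when replicate 3 of both groups was left out, with the replicate number as a block (limma adjusted p = 0.0851) and without it (limma adjusted p = 0.0574). With all 6 arrays limma called 0 of the 6 probe sets at an adjusted p under 0.05, where 0.0281% of all probe sets tested were called, and 1 of the 6 had an unadjusted p under 0.05, where 9.76% of all did. Without wild type replicate 3 it called 1 of the 6, where 3.33% of all were called (3.07% as higher and 0.263% as lower in DpDf), and 3 had an unadjusted p under 0.05, where 20.3% of all did.

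**Figure D1:**
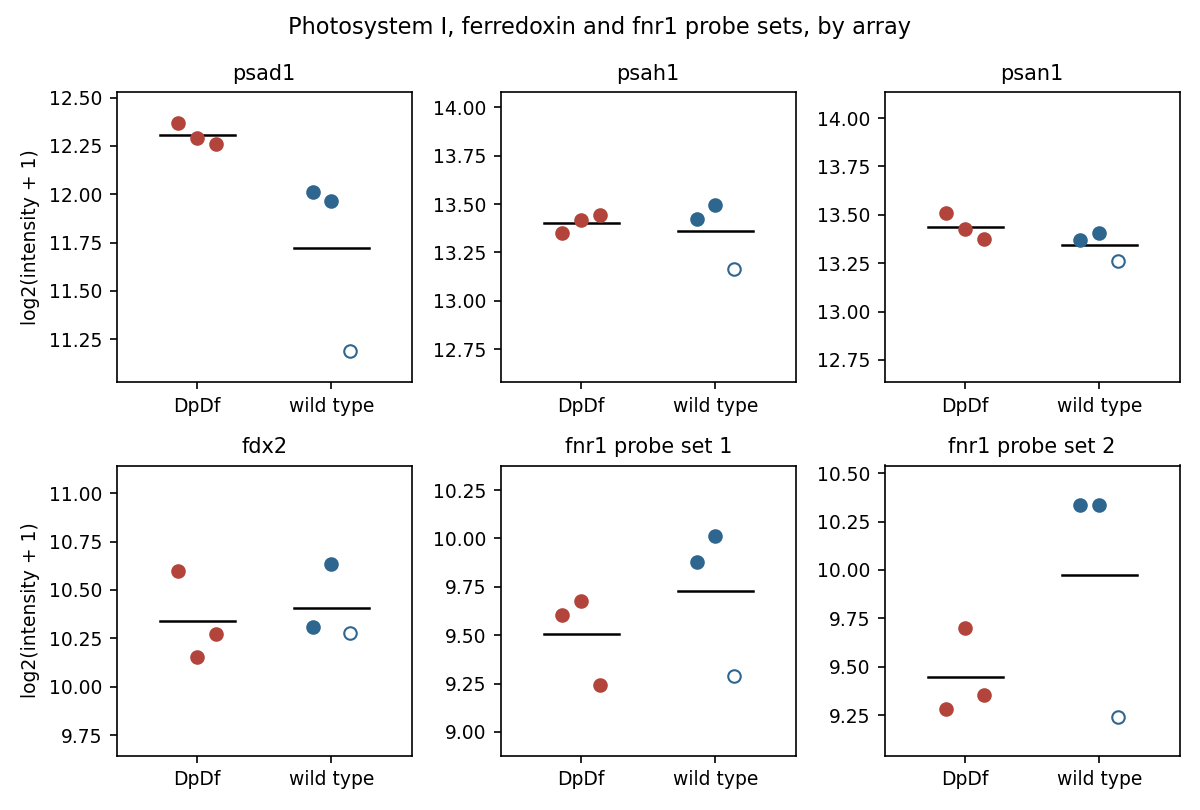
Log2(intensity + 1) of each of the 6 probe sets in 3 DpDf pools (left) and 3 wild-type pools (right), with a line at the mean of each group; the open circle is wild type replicate 3, and every panel spans the same range of log2 units. The psad1 points of DpDf, 12.26 to 12.37, lie above all wild-type points, whereas the open circle lies among the DpDf points for fnr1 probe set 1 and just below them for fnr1 probe set 2.

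The gene psad1 (LOC541791, chromosome 5, probe set Zm.14396.1.S1_at) read 12.37, 12.29 and 12.26 in DpDf and 12.01, 11.97 and 11.19 in wild type, as log2(intensity + 1) and in the order of the replicate numbers. In linear intensity these were 5277, 5002 and 4902 in DpDf and 4121, 3997 and 2337 in wild type. The DpDf pools lay close together and did not overlap with wild type, in which replicate 3 stood far below the other 2. Of all probe sets tested, 23.2% also had every DpDf array above every wild-type array, and 25.4% did without wild type replicate 3, so the lack of overlap alone is common on these arrays. Mean and SD were 12.30 ± 0.05 for DpDf and 11.72 ± 0.46 for wild type, with n = 3 each.

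The log2 difference of psad1 was 0.58 ± 0.23 with all 6 arrays (SE, limma adjusted p = 0.497, higher in 3 of 3 replicate pairs), with a 95% interval of 0.04 to 1.13. Without wild type replicate 3 it was 0.32 ± 0.07 (SE, limma adjusted p = 0.0724), with a 95% interval of 0.15 to 0.49. The first interval includes 0.585, the log2 of 3 copies over 2, and the second lies below it. The estimate with all arrays is close to that copy ratio, yet it rests on the low reading of 1 array.

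The level of psad1 was also set against the median of named genes outside the arm on the same array. This takes out a shift shared by most genes, but not the narrower range of wild type replicate 3. On that scale psad1 lay at 1.69, 1.57 and 1.61 in DpDf and at 1.27, 1.25 and 0.94 in wild type (log2). Wild type replicate 3 remained the lowest array, but the gap to the other wild-type pools narrowed. The difference was 0.47 with all 6 arrays (limma adjusted p = 0.163) and 0.36 without wild type replicate 3, with a 95% interval of 0.19 to 0.54 (limma adjusted p = 0.0416). In that centred setting, a choice made after seeing the data, psad1 passed the test, as 1 of 492 called among the 10661 probe sets tested. Without centring and without wild type replicate 3, 20 of the 60 named probe sets on the arm were called, psad1 not among them.

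The partner subunits gave a different picture. The gene psah1 (LOC541685, chromosome 6, probe set Zm.380.1.A1_at) read 13.35, 13.42 and 13.44 in DpDf and 13.42, 13.49 and 13.17 in wild type. The groups overlapped, with wild type replicate 2 the highest array and wild type replicate 3 the lowest. Its difference was 0.04 with all 6 arrays (95% interval -0.28 to 0.36, limma adjusted p = 0.87) and -0.05 without wild type replicate 3 (95% interval -0.23 to 0.12, limma adjusted p = 0.7).

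The gene psan1 (LOC542605, chromosome 3, probe set Zm.959.1.A1_at) read 13.51, 13.42 and 13.38 in DpDf and 13.37, 13.41 and 13.26 in wild type. Here too the groups overlapped, since wild type replicate 2 lay above DpDf replicate 3. The difference was 0.09 with all 6 arrays (95% interval -0.19 to 0.37, limma adjusted p = 0.695) and 0.05 without wild type replicate 3 (95% interval -0.13 to 0.23, limma adjusted p = 0.735). Without that array the upper ends of both partner intervals, 0.12 for psah1 and 0.23 for psan1, lay under the psad1 estimate of 0.32, although the psad1 interval itself begins at 0.15.

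**Figure D2:**
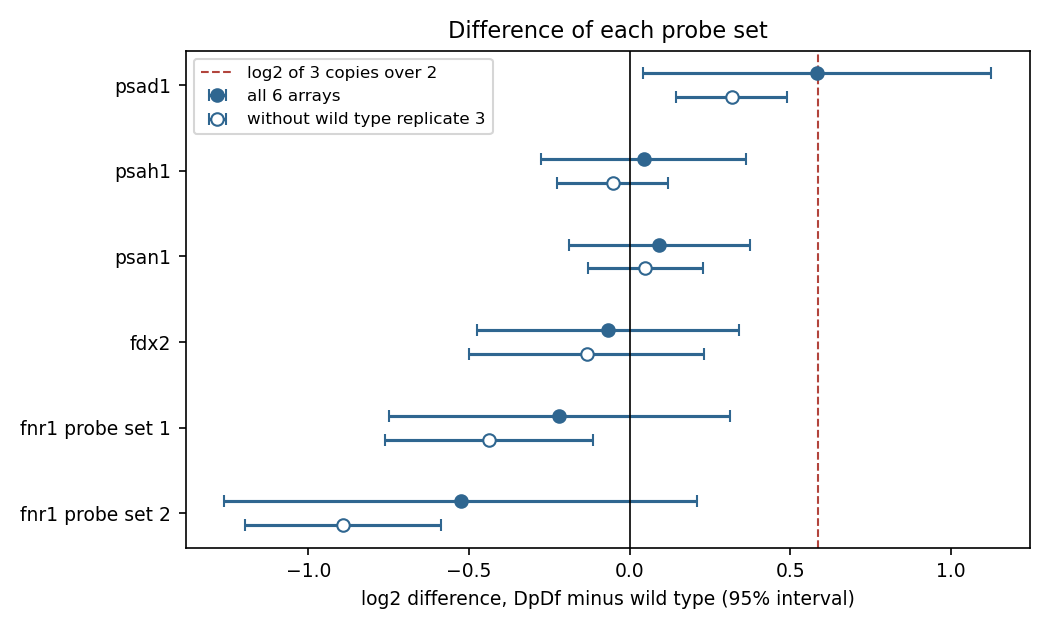
Log2 difference (DpDf minus wild type, x axis) of each of the 6 probe sets, with 95% intervals of the limma fit, for all 6 arrays (filled) and without wild type replicate 3 (open); the dashed line marks the log2 of 3 copies over 2, 0.585. Without that array psad1 lies between 0 and the dashed line, psah1, psan1 and fdx2 include 0, and both fnr1 probe sets lie below 0.

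The subunits were then compared directly within each array. Such a within-array difference cancels whatever an array does to both genes alike, and only its change between groups can be read, because probe sets differ in brightness. The log2 difference of psad1 minus psah1 was -0.98, -1.13 and -1.18 in DpDf and -1.41, -1.53 and -1.97 in wild type. All 3 DpDf values lay above all wild-type values. The group means differed by 0.54 with all 6 arrays, and by 0.37 without wild type replicate 3, a 1.29-fold shift of psad1 relative to psah1. The two-sided exact permutation test over arrays gave p = 0.1, the smallest that 3 against 3 arrays allow (adjusted p = 0.2 over 4 pairs).

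For psad1 minus psan1 the values were -1.14, -1.14 and -1.12 in DpDf and -1.36, -1.44 and -2.07 in wild type. The 3 DpDf pools hardly differed from each other here, with an SD of 0.0139. The means differed by 0.49 with all 6 arrays (two-sided exact permutation p = 0.1, adjusted p = 0.2) and by 0.27 without wild type replicate 3, a 1.21-fold shift. Without that array the exact test again gave p = 0.1 for both pairs, the smallest possible with 3 against 2 arrays (adjusted p = 0.133).

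The pair psah1 minus psan1, in which both genes have 2 copies in either group, was read as an example where copy number does not differ. It was -0.16, -0.01 and 0.07 in DpDf and 0.05, 0.09 and -0.09 in wild type, and the groups overlapped. The means differed by -0.05 with all 6 arrays (two-sided exact permutation p = 0.6) and by -0.10 without wild type replicate 3 (exact p = 0.4). Both psad1 pairs differed by more than this pair in either array set. A single pair does not show a spread, however, and the pairs are not alike in brightness. In DpDf the means of psah1 and psan1 were 13.40 and 13.44, and that of psad1 was 12.30. The narrower range of wild type replicate 3 therefore need not cancel alike in them. With this many arrays the exact permutation test cannot give a p under 0.05 for any of these comparisons. Many other transcripts also lay higher in DpDf against the same partners. Of all other probe sets tested, 23.1% had their DpDf values minus psah1 wholly above those of wild type in the full set of 6 arrays, and 32.2% once wild type replicate 3 was left out. Against psan1 these shares were 16% and 19%.

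**Figure D3:**
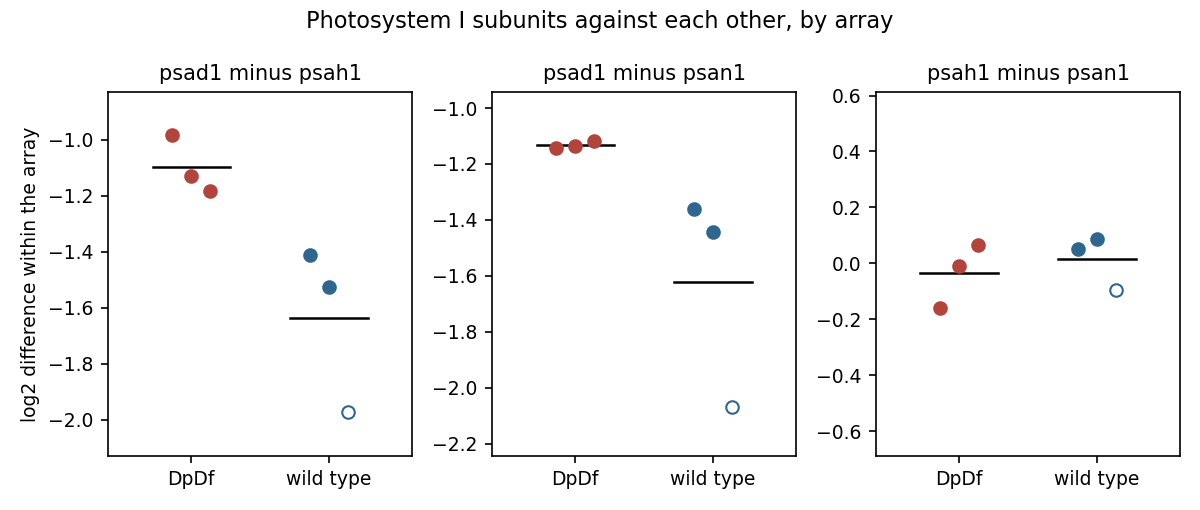
Log2 difference between 2 photosystem I probe sets on the same array (y axis) in 3 DpDf pools (left) and 3 wild-type pools (right), with a line at the mean of each group; the open circle is wild type replicate 3. DpDf lies wholly above wild type for psad1 minus psah1 and for psad1 minus psan1, and the groups overlap for psah1 minus psan1.

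Wild type replicate 3 did not lower the 3 subunits alike. Relative to the named genes outside the arm, psah1 lay at 2.67, 2.70 and 2.80 in DpDf and at 2.68, 2.78 and 2.92 in wild type. For psan1 these values were 2.83, 2.71 and 2.73 in DpDf and 2.63, 2.69 and 3.01 in wild type. On that array both partners were thus the highest of the wild-type pools by this measure, whereas psad1 was the lowest. Both psad1 pairs are accordingly larger with that array than without it.

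By rank among all probe sets of its array, psad1 stood at 94.0, 93.6 and 93.5 percent in DpDf and at 91.8, 91.7 and 89.1 percent in wild type, again without overlap. The ranks of psah1 were 97.9 to 98.1 percent in DpDf and 97.96 to 98.2 percent in wild type. Those of psan1 were 97.9 to 98.3 percent in DpDf and 97.8 to 98.2 percent in wild type. A rank depends on the order within an array alone, and by it wild type replicate 3 lay inside the range of the other arrays for both partners but not for psad1.

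Within the arm psad1 was neither among the largest nor the smallest differences. It was number 20 of 46 measured arm genes, from the largest, with all 6 arrays, and number 32 without wild type replicate 3, where the median of the arm was 0.40. Among the 2 measured genes on either side of it in the gene order, arf1 (0.38 ± 0.07, SE, limma adjusted p = 0.045) and sqs1, which encodes squalene synthase (0.44 ± 0.07, SE, limma adjusted p = 0.0266), rose without wild type replicate 3. The outer pair, his1 (0.17, limma adjusted p = 0.231) and LOC542518 (0.39, limma adjusted p = 0.32), did not pass. With all 6 arrays the 4 neighbours had differences of 0.28 to 0.69 and none was called. Whether psad1 differs from its neighbours was not tested.

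The probe sets whose pattern over the 6 arrays came closest to that of psad1 were looked for among 977 named ones. The likeness was the root mean square difference of log2 values, each centred on its own mean. Among the nearest were pdi3, a protein disulfide isomerase gene of chromosome 4 (0.0413), and eif7 on the chromosome 5 short arm (0.059). Without wild type replicate 3 their differences were 0.34 and 0.36, and neither passed the test (limma adjusted p = 0.0589 and 0.0654). As both were picked by their values on the same arrays, differences like that of psad1 follow from the search.

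Downstream of the photosystem, fdx2 (LOC541619, chromosome 6, probe set Zm.7282.1.A1_at) read 10.60, 10.15 and 10.27 in DpDf and 10.31, 10.64 and 10.28 in wild type. The groups overlapped, with 1 high pool in each. The difference was -0.07 with all 6 arrays (95% interval -0.48 to 0.34, limma adjusted p = 0.838) and -0.13 without wild type replicate 3 (95% interval -0.50 to 0.23, limma adjusted p = 0.646). In the gene order fdx2 is the first named and measured gene of chromosome 6, the chromosome whose short arm tip is present in 1 copy in DpDf. The labels place the break by cytology and a genetic map, so whether fdx2 has 1 or 2 copies there is not known here, and both intervals are wide.

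The reductase gene fnr1 (LOC542713, chromosome 1, probe sets Zm.4068.1.S1_at as 1 and Zm.4068.2.S1_a_at as 2) has 2 copies in both groups, and its 2 probe sets both read lower in DpDf than in wild type replicates 1 and 2. Probe set 2 read 9.28, 9.70 and 9.35 in DpDf and 10.34, 10.34 and 9.24 in wild type. Wild type replicates 1 and 2 were nearly equal and stood above all DpDf pools, while wild type replicate 3 lay below them. Without that array the log2 difference was -0.89 ± 0.13 (SE, limma adjusted p = 0.0192), with a 95% interval of -1.20 to -0.59, lower in 3 of 3 DpDf pools. With all 6 arrays it was -0.53 ± 0.31 (SE, limma adjusted p = 0.562), and its interval of -1.26 to 0.21 included 0. By replicate pairs, as counted for psad1, the differences were -1.05, -0.64 and 0.11. With replicate 3 of both groups left out the difference was still -0.84.

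Probe set 1 of fnr1 read 9.60, 9.68 and 9.24 in DpDf and 9.88, 10.01 and 9.29 in wild type. Wild type replicates 1 and 2 were again the highest arrays, but the gap was smaller. The difference was -0.44 without wild type replicate 3 (95% interval -0.76 to -0.12, limma adjusted p = 0.148) and -0.22 with all 6 arrays (limma adjusted p = 0.634). Relative to the named genes outside the arm, wild type replicate 3 was no longer within the DpDf range for this probe set. There it read -1.07, -1.04 and -1.40 in DpDf and -0.86, -0.70 and -0.96 in wild type. On that scale all DpDf pools lay below all wild-type pools, as was the case for 6.48% of all probe sets tested. For probe set 2 the same values were -1.39, -1.02 and -1.30 in DpDf and -0.40, -0.37 and -1.004 in wild type. DpDf also lay lower here, though DpDf replicate 2, at -1.02, was only just below wild type replicate 3. The centred differences with all 6 arrays were -0.33 for probe set 1 (limma adjusted p = 0.355) and -0.64 for probe set 2 (limma adjusted p = 0.253).

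Whether the 2 probe sets of fnr1 moved by unequal amounts was tested within arrays. Probe set 1 minus probe set 2 was 0.32, -0.02 and -0.11 in DpDf and -0.46, -0.33 and 0.05 in wild type. The means differed by 0.31 with all 6 arrays, where the groups overlapped (two-sided exact permutation p = 0.3), and by 0.45 without wild type replicate 3, where they did not (exact p = 0.1, the smallest possible). Probe set 2 has a suffix by which the array maker marks probes shared by several transcripts of a gene. The fnr1 gene had 2 further probe sets, neither tested because too few arrays reached the 40th percentile. Both carry the cluster and transcript number of probe set 2, and share the cluster number alone with probe set 1. One read 7.15, 7.39 and 7.16 in DpDf and 7.84, 7.90 and 7.23 in wild type. Wild type replicates 1 and 2 were again the highest arrays, at a level below the bound on all 6. The other, whose name carries another strand code than the rest, read 6.76 to 6.85 in DpDf and 6.82, 6.90 and 8.46 in wild type. There wild type replicate 3 alone was high.

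Probe sets most like fnr1 probe set 2, the brighter of the 2 on average, were sought in the same way among 976 named ones. They were aprl1 (root mean square difference 0.16), hmt1 (0.183) and vdac1b, which encodes a channel of the outer mitochondrial membrane (0.185). These distances are larger than those found for psad1. Without wild type replicate 3, aprl1 fell by 0.83 on the log2 scale (limma adjusted p = 0.0151), and hmt1 (-0.57, limma adjusted p = 0.0683) and vdac1b (-0.56, limma adjusted p = 0.0535) did not pass. With all 6 arrays their differences were -0.35, -0.33 and -0.22, and none passed. These genes were picked by their values on the same arrays. A fall like that of fnr1 probe set 2 therefore follows from the search and is no separate result.

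The other measured genes with names of photosynthesis and ferredoxin numbered 11, picked by how a name begins. In both array sets limma called 0 of them (unadjusted p under 0.05 for 1, FDX6, without wild type replicate 3 and for 0 in the full set). Their median difference was 0.12 without wild type replicate 3, against 0.02 over all probe sets tested, and 0.17 with all 6 arrays, against 0.18. In either array set 9 of the 11 differences were above 0, with each gene given by its brightest probe set. As the medians over all probe sets tested were above 0 too, most of those also lay above 0. The list was chosen with results of these data known.

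The light-harvesting genes had small differences of like size in the probe sets used. The genes lhcb5, Lhcb5-2, lhcb6 and Cab-m7, which encode chlorophyll-binding proteins of the antenna, had differences of 0.16, 0.12, 0.14 and 0.12 without wild type replicate 3, with limma adjusted p-values of 0.255 to 0.387. The brightest of them, Cab-m7, read 14.75, 14.68 and 14.74 in DpDf and 14.57, 14.64 and 14.61 in wild type. In all 4 every DpDf pool lay above every wild-type pool, as also in OEE3 and psbs1, which makes 6 of the 11 listed genes. The share over all probe sets tested was 23.2% (25.4% without wild type replicate 3). The light-harvesting differences were each smaller than the 0.32 of psad1, although the difference between them and psad1 was not tested. Each gene is given by its brightest probe set, and the 4 tested ones of lhcb6 disagreed, at 0.14, 0.08, -0.26 and -0.29 without wild type replicate 3.

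On the side of photosystem II, OEE3, which encodes a subunit of the oxygen-evolving complex, had a difference of 0.13 (limma adjusted p = 0.417), and psbs1, which encodes the protein PsbS of energy dissipation, one of 0.15 (limma adjusted p = 0.317), both without wild type replicate 3. In the carbon cycle, rbcs1 lay at 0.03 and the Rubisco activase gene rca1 at 0.02. With all 6 arrays rca1 lay at 0.33 (limma adjusted p = 0.58), and wild type replicate 3 read 9.98 where the other 5 arrays read 10.84 to 11.05. The gene rcalm lay at -0.20 (limma adjusted p = 0.278). It is counted in the list only because its name begins like that of rca1, and is not known here as a photosynthesis gene.

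**Figure D4:**
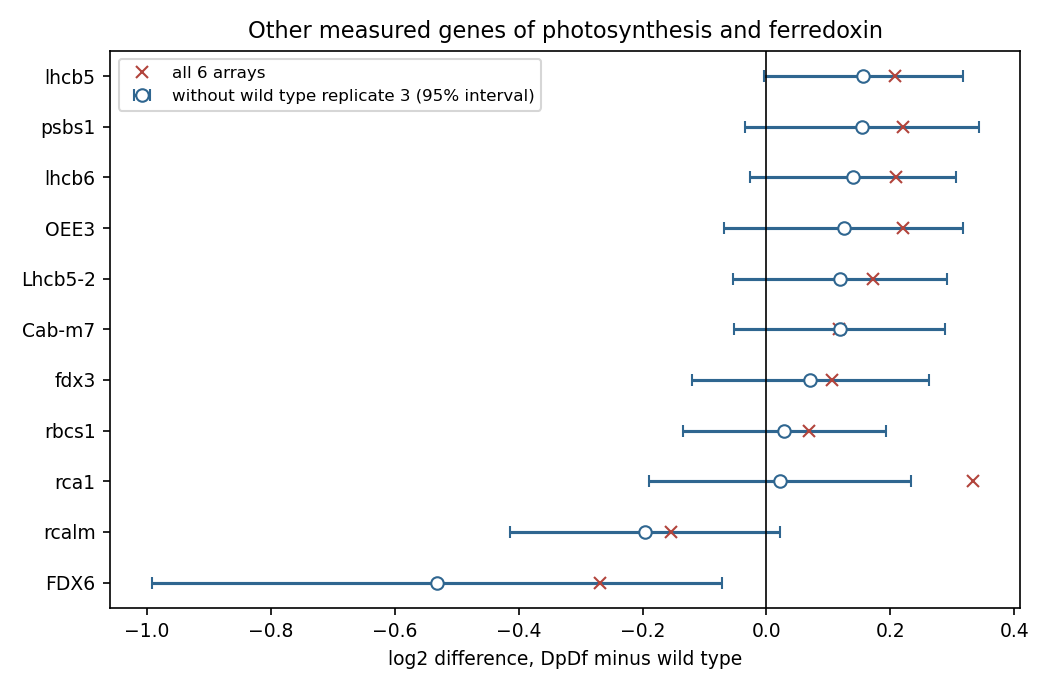
Log2 difference (DpDf minus wild type, x axis) of the 11 other measured genes picked by names of photosynthesis and ferredoxin, without wild type replicate 3 (open circles, with 95% intervals of the limma fit) and with all 6 arrays (crosses). Of the 11, each shown by its brightest probe set, 9 lie above 0 in either array set, as do most probe sets tested. FDX6 lies lowest, at -0.53 without wild type replicate 3.

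The other 2 ferredoxin genes measured had differences of opposite sign. The gene FDX6, which encodes a ferredoxin known from roots, read 11.94, 11.61 and 11.24 in DpDf and 11.999, 12.26 and 11.34 in wild type. Its difference was -0.53 ± 0.19 without wild type replicate 3 (SE, limma adjusted p = 0.197) and -0.27 with all 6 arrays (limma adjusted p = 0.636). As in fnr1, wild type replicates 1 and 2 were the highest arrays. The gene fdx3, listed with FDX6 as root type, did not share that fall. It lay at 0.07 without wild type replicate 3 and at 0.11 with all 6 arrays, but its second probe set lay at -0.08 and -0.02 in the same order. Without wild type replicate 3 the values of psad1, fnr1 probe set 2 and FDX6 were thus 0.32, -0.89 and -0.53. Of these that of fnr1 probe set 2 alone passed the test, and fnr1 probe set 1, at -0.44, did not pass.

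Leaving out both wild type replicate 3 and DpDf replicate 1, in which the 3' end was strongest relative to the 5' end, kept the call of fnr1 probe set 2. Calls also grew over the whole array, to 753 of 10661 probe sets, against 355 without wild type replicate 3 alone. In that setting, also chosen after seeing the data, psad1 lay at 0.29 (limma adjusted p = 0.0516) and fnr1 probe set 2 at -0.81 (limma adjusted p = 0.0126), while fdx2 lay at -0.26 (limma adjusted p = 0.228). The 2 remaining DpDf pools still had a 3' to 5' value, 0.99 and 0.95, above those of the wild-type pools.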

How the data were processed

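Transcripts were measured in 3 DpDf and 3 wild-type pools. Each array holds 1 linear intensity per probe set, as the authors deposited it. The submitters' processing notes name GCOS 1.2 and GCRMA without their role or order. Per the labels' protocols, 8 µg of RNA was labelled with a one-cycle kit. That the scale is linear was read from the values. Arrays have no read depth, so their number limits the precision.

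Intensities became log2(intensity + 1). Apart from 113 controls, probe sets entered the tests if 3 or more arrays reached their own 40th percentile (10661 did). The fit was limma 3.58.1 under R 4.3.3, with Benjamini-Hochberg adjustment over all these probe sets, a threshold of 0.05 and no block, and it was checked on simulated data. Single within-array values had exact permutation tests. Names came from the platform table through gene identifiers of the RefSeq table for Zm-B73-REFERENCE-NAM-5.0, used for names, chromosomes and gene order only, and the arm was the first 40% of chromosome 5.

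Members, lists, tests and alternatives were chosen with earlier results of these data known. Named were the members, the 3 genes nearest in pattern to psad1 and to fnr1 probe set 2, the 4 neighbours of psad1, and the photosynthesis genes that passed or, as none did, the 3 of largest difference (FDX6, rcalm and lhcb5). Of the genes nearest to psad1, 1 is not reported here. Other list genes were named after their values were seen. Alternatives were left-out arrays, the replicate block, quantile normalization, centring, other filters, a pseudocount of 16 and array weights. As the labels grow each replicate as its own planting of siblings, the replicate numbers pair the pools. Between pools of 1 number, deviations from the mean of each group had correlations of 0.076, -0.164 and 0.195 across probe sets.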

Additional observations from a re-analysis of the deposited data

How the results depend on the processing

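With all 6 arrays, none of the 6 probe sets passed when any array other than wild type replicate 3 was left out, with another filter, with a pseudocount of 16, with quantile normalization, with centring, or with the replicate block. Leaving out single arrays gave 0.32 to 0.73 for psad1, -0.05 to 0.11 for psah1, 0.05 to 0.12 for psan1, -0.20 to 0.05 for fdx2, -0.44 to -0.08 for fnr1 probe set 1 and -0.89 to -0.34 for fnr1 probe set 2. The sign of fdx2 turned without DpDf replicate 2 (0.026) or wild type replicate 2 (0.046). That of psah1 turned without wild type replicate 3 (-0.0535), with quantile normalization (-0.0203), with centring (-0.0711), with array weights (-0.0721), with replicate 3 of both groups left out, with or without the replicate block (-0.0739), and, among settings added later, without wild type replicate 3 and DpDf replicate 1 (-0.0267) and with centring and no wild type replicate 3 (-0.0085). That of psan1 turned with centring (-0.0227). The cause of these turns was not tested.

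Probe sets called numbered 3 with all 6 arrays, 355 without wild type replicate 3, 81 with centring, 2446 with array weights, 753 without wild type replicate 3 and DpDf replicate 1, and 492 with centring and no wild type replicate 3. Array weights called psad1 (0.32, limma adjusted p = 0.00164), fdx2 (-0.38, limma adjusted p = 0.00686) and both fnr1 probe sets (-0.49 and -0.81), but their estimation stopped before converging and gave wild type replicate 2 a weight of 17 against 0.0387 for replicate 3. Centred and without wild type replicate 3, psad1 lay at 0.36 and fnr1 probe set 2 at -0.85, both called. Without that array and DpDf replicate 1, fnr1 probe set 2 lay at -0.81 and was called. With the replicate block and all 6 arrays psad1 lay at 0.58 (limma adjusted p = 0.397) and fnr1 probe set 2 at -0.53 (limma adjusted p = 0.472). With replicate 3 of both groups left out, fnr1 probe set 2 lay at -0.84 and was called neither with the block (limma adjusted p = 0.0851) nor without it (limma adjusted p = 0.0574, a fit added after seeing the data), so the block changed no call of the 6. It did move the number of probe sets called on those 4 arrays, which was 4 with the block and 160 without it.

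Within arrays, psad1 minus psah1 ran from 0.37 to 0.65 and psad1 minus psan1 from 0.27 to 0.62 with single arrays left out, psah1 minus psan1 from -0.1025 to 0.0149, and fnr1 probe set 1 minus probe set 2 from 0.18 to 0.45. The exact sign test over replicate pairs (replicate block) gave the same means, 0.54 and 0.49, and p = 0.25, its smallest. The sign of psah1 minus psan1 turned without DpDf replicate 1 (0.0149).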
